A study of Mus musculus with 10 samples.

Results

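The genes described here encode the protein network of Usher syndrome, the inherited combination of deafness and retinal degeneration. The members were taken from the expression table by a list of gene names: *Myo7a*, *Ush1c*, *Cdh23*, *Pcdh15*, *Ush1g*, *Adgrv1*, *Whrn*, *Clrn1* and *Cib2*, 9 of its 54532 genes. All 9 passed the filter on low values and were among the 24508 genes tested. RNA-seq was done on whole neural retinas of 2-month-old BALB/c mice, an albino strain, in a study that searched for factors induced by light stress. All mice spent 12 hr in the dark and were then kept for 1 day either under normal light of 200 lux (NL) or under intense light of 15000 lux (LD). Each group has 5 retinas, numbered 1, 4, 5, 7 and 8 in NL and 1, 4, 6, 7 and 8 in LD. The labels do not say whether every retina came from a different mouse, so p-values measure only the spread between these samples.

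In the hair cells of the inner ear, cadherin 23 and protocadherin 15 join to form the tip link that pulls on the transduction channel. Myosin VIIa, harmonin and SANS anchor the link inside the cell. In photoreceptors, whirlin and the very large adhesion receptor ADGRV1 sit at the membrane around the base of the connecting cilium. Cargo passes there from the inner to the outer segment. Other members have been placed at the calyceal processes and the synapse of photoreceptors.

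After 1 day of intense light, *Clrn1* was the 1 member that passed both thresholds, an adjusted p under 0.01 and a change above 2-fold, and it was higher in LD. *Whrn* and *Adgrv1* were lower in every LD retina than in any NL retina and passed the adjusted p, but not the fold. The other 6 members did not pass the adjusted p. Among all genes tested, 6.51% passed both thresholds (4.13% higher and 2.37% lower), and 17.0% passed the adjusted p, against 3 of the 9 members. The groups did not overlap for 4 of the 9 members (*Clrn1*, *Myo7a*, *Whrn* and *Adgrv1*) and for 22.4% of all genes. The median log2 fold change was -0.00 for the members and -0.01 for all genes. The members were not tested as a list.

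The depth was 21.3 to 26.8 M reads (M, 1e6) in the NL retinas and 19.0 to 23.4 M reads in the LD retinas. It is the sum of the reads counted for the genes in the expression table. Sequencing was paired-end, so a read here may stand for 1 pair. The values are FPKM, reads per kilobase of gene divided by a library size, so that levels can be compared between genes. That library size was the depth times a scaling factor per retina, 0.951 to 0.968 in NL and 1.04 to 1.07 in LD. The factor lowered the LD values relative to the NL values. All 10 rod genes listed as markers were lower in LD past both thresholds, with a median log2 fold change of -2.26. In bulk tissue, fewer cells of a type and less RNA per cell cannot be told apart. Of 6 cone genes, 4 were lower past both thresholds. LD-4 and LD-6 stood apart from the other LD retinas. Their mean log2 rod level was 6.31 and 6.41, against 7.09 to 7.35 in LD-1, LD-7 and LD-8 and 8.93 to 9.12 in NL. They were also the LD retinas with the female transcript *Xist*, at 159 and 164 FPKM, as were NL-4 and NL-8 in the control group, at 164 and 194 FPKM, while the other 6 retinas had at most 0.118 FPKM. For 8 of the 9 members both of these LD retinas lay outside the range of the other LD retinas, 5 above and 3 below it, with *Ush1c* the exception. The same held for 42.3% of all genes tested. Within LD, the presence of *Xist* and the lower rod level cannot be told apart.

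The stretches before the genes that passed the adjusted p are shown so that their upstream sequence can be read beside the values. They come from RefSeq on GRCm38.p6, which had windows for 8 of the 9 members, reaching from 250 bases before the RefSeq start to 50 bases after it. Only the bases outside the span of the gene are printed, 5′ to 3′ on the minus strand on which all of these genes lie. They are at chr3:58885341-58885462 for *Clrn1*, chr4:63495992-63496241 for *Whrn* and chr13:81633155-81633394 for *Adgrv1*. Capitals mark a CCAAT box on either strand.
Clrn1: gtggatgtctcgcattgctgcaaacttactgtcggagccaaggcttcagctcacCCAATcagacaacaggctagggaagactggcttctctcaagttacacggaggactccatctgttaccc
Whrn: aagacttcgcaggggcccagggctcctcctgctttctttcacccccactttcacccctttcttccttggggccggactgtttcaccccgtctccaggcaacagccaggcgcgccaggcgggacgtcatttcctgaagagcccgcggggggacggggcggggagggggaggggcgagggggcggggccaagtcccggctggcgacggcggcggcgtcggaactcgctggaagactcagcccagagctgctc
Adgrv1: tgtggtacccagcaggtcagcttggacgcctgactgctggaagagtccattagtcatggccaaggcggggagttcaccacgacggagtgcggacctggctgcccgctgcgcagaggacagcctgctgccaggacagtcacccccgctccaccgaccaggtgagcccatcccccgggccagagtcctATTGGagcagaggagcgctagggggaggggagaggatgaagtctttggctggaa
The letters CCAAT were found in the windows of 4 members, *Clrn1* (starting 196 bases before the RefSeq start), *Adgrv1*, *Pcdh15* and *Cib2*, and in 37.4% of 32851 windows of the same length. TAATCC, the core that the photoreceptor factor CRX binds, was found in 1 member's window, on the minus strand of that window 7 bases after the start of *Adgrv1*, and in 7.06% of all windows. TGANTCA of AP-1 was found in no member's window and in 7.81% of all, and TTCNNNGAA of STAT factors in no member's window and in 8.30% of all. These 4 motifs were chosen with the sequences in view.

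Of the tip link cadherins, *Pcdh15* was among the most abundant members and *Cdh23* was the least abundant. *Pcdh15*, on chromosome 10 (73099342 to 74649737, plus strand), encodes the lower part of the tip link. Its level was 15.0, 13.6, 14.0, 15.5 and 14.5 FPKM in NL-1, NL-4, NL-5, NL-7 and NL-8. It was 21.8, 12.1, 13.0, 21.2 and 21.6 FPKM in LD-1, LD-4, LD-6, LD-7 and LD-8. The NL retinas were close together, whereas 3 LD retinas lay above all of them and LD-4 and LD-6 below all of them. The means were 14.5 ± 0.739 FPKM in NL and 17.9 ± 4.92 FPKM in LD (SD, n = 5 each), and the log2 fold change of 0.26 (SE 0.17) did not pass the test (adjusted p = 0.305).

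The call for *Pcdh15* depended on which retinas were included. Without LD-4 and LD-6, a choice made after the values were seen, *Pcdh15* was higher in LD by 0.57 on the log2 scale (SE 0.05, adjusted p = 8.6e-05). A split by *Xist*, also chosen after the values were seen, sets the same LD retinas apart, so it is no independent check. Among the 6 retinas without *Xist*, 3 per group, the change was 0.54 (adjusted p = 0.0012), and among the 4 with *Xist* it was -0.16 (adjusted p = 0.198). The difference between these changes was not tested. On the log2 scale the SD of *Pcdh15* among the LD retinas was 0.42, and it was 0.087 after the mean of the 10 rod genes in the same retina was subtracted, near the 0.096 of the NL retinas. For *Clrn1*, the same subtraction took the SD in LD from 0.47 to 0.92. It also lowered the SD in LD for *Whrn*, from 0.33 to 0.25. It raised that of the other members, *Adgrv1* included (0.20 to 0.29). No share over all genes is given for this.

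*Cdh23*, on chromosome 10 (60302748 to 60696490, minus strand), encodes the upper part of the tip link. It stood at 0.116 to 0.331 FPKM in NL and 0.104 to 0.256 FPKM in LD, which is 40 to 119 reads per retina. The groups overlapped, and the log2 fold change was -0.06 (SE 0.26, adjusted p = 0.888). *Vsir*, a gene on the opposite strand within the span of *Cdh23* that shares no exonic base with it, was at 0.681 ± 0.0949 FPKM in NL and 0.992 ± 0.267 FPKM in LD (SD, n = 5 each, adjusted p = 0.123). Whether the counting used strand is not given in the sources used here.

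**Figure D1:**
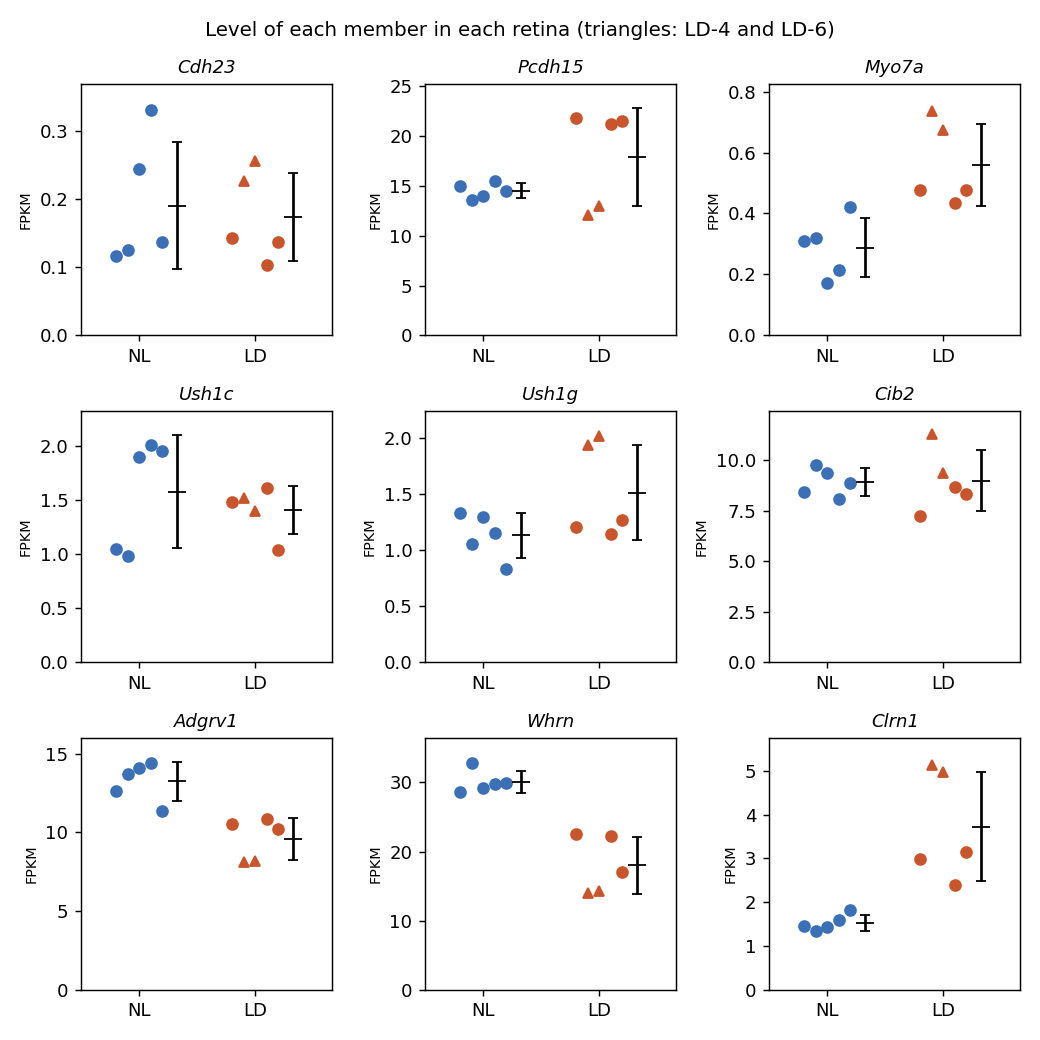
Level of the 9 members in FPKM (vertical axes, each from 0) in each of the 5 NL (blue) and 5 LD (orange) retinas, with the mean and SD beside the points. Triangles are LD-4 and LD-6, which lie below all NL retinas for *Pcdh15*, while the other LD retinas lie above them. For *Clrn1* all LD retinas, at 2.39 to 5.14 FPKM, lie above all NL retinas, at 1.34 to 1.82 FPKM.

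Of the genes for the motor and the scaffolds that hold the tip link, none passed the adjusted p of 0.01, and *Myo7a* came closest. *Myo7a*, on chromosome 7 (98051060 to 98119524, minus strand), encodes an actin-based motor that is also abundant in the pigment epithelium behind the retina. Its level was 0.311, 0.319, 0.173, 0.214 and 0.421 FPKM in NL-1, NL-4, NL-5, NL-7 and NL-8. It was 0.479, 0.737, 0.673, 0.436 and 0.477 FPKM in LD-1, LD-4, LD-6, LD-7 and LD-8. The groups did not overlap, and LD-4 and LD-6 had the highest levels. The log2 fold change was 0.78 (SE 0.22) with an adjusted p of 0.0242, and the level rested on 30 to 93 reads in NL and 85 to 129 reads in LD. Without LD-4 and LD-6 the change was 0.58 (adjusted p = 0.147), and with the presence of *Xist* as a covariate *Myo7a* passed the adjusted p (0.0062). Of 10 pigment epithelium genes, none passed the adjusted p, and their summed level was 52.4 to 155 FPKM in NL and 60.7 to 119 FPKM in LD. The part of that tissue in the *Myo7a* values was not tested.

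*Ush1g*, on chromosome 11 (115315192 to 115322041, minus strand), encodes SANS, an adaptor that binds both myosin VIIa and harmonin. It was at 1.33, 1.05, 1.30, 1.15 and 0.832 FPKM in the NL retinas in the order above, and at 1.20, 1.94, 2.01, 1.14 and 1.26 FPKM in the LD retinas. LD-4 and LD-6 were above every NL retina, and the other LD retinas were within the NL range. The log2 fold change was 0.36 (SE 0.20, adjusted p = 0.203). It was 1.00 among the retinas with *Xist* (adjusted p = 0.0402) and -0.06 among those without (adjusted p = 0.828).

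*Ush1c*, on chromosome 7 (46195350 to 46238503, minus strand), encodes harmonin, the PDZ scaffold of the complex. It was at 0.978 to 2.01 FPKM in NL and 1.04 to 1.61 FPKM in LD, and its log2 fold change was -0.10 (SE 0.23, adjusted p = 0.778). The NL retinas were split, with NL-1 and NL-4 near 1 FPKM and the other 3 between 1.89 and 2.01 FPKM. *Gm9860*, a gene model on the other strand, shares 120 exonic bases with *Ush1c* and was at 0.860 ± 0.423 FPKM in NL and 0.718 ± 0.267 FPKM in LD (SD, n = 5 each, adjusted p = 0.781), so the level of *Ush1c* is uncertain to that extent.

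*Cib2*, on chromosome 9 (54544794 to 54560218, minus strand), encodes a calcium-binding protein of the transduction complex whose place among the Usher genes has been disputed. Its means were 8.92 ± 0.693 FPKM in NL and 8.99 ± 1.51 FPKM in LD (SD, n = 5 each). The log2 fold change was -0.00 (SE 0.11, adjusted p = 0.997), and its sign changed with the scaling of the libraries, from -0.00 to 0.13 when the scaling factor per retina was left out. Of the LD retinas, LD-4 at 11.3 FPKM was above and LD-1 at 7.27 FPKM below all NL retinas. *Sh2d7*, which overlaps 227 exonic bases of *Cib2* on the other strand, had at most 5 reads in any retina.

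The genes of the complex at the base of the photoreceptor cilium were both lower in LD. *Whrn*, on chromosome 4 (63414910 to 63495991, minus strand), encodes whirlin, the PDZ scaffold of this complex, and was the most abundant member in NL. Its level was 28.6, 32.8, 29.2, 29.8 and 29.9 FPKM in NL-1, NL-4, NL-5, NL-7 and NL-8. It was 22.5, 14.0, 14.2, 22.3 and 17.0 FPKM in LD-1, LD-4, LD-6, LD-7 and LD-8. LD-4 and LD-6 were the lowest. The means were 30.1 ± 1.62 FPKM in NL and 18.0 ± 4.17 FPKM in LD (SD, n = 5 each), and *Whrn* fell by 0.77 on the log2 scale (SE 0.14, adjusted p = 0.00183). Without LD-4 and LD-6 the log2 fold change was -0.55 (adjusted p = 0.0036). It was -0.51 among the retinas without *Xist* (adjusted p = 0.0257) and -1.14 among those with it (adjusted p = 0.0027).

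*Adgrv1*, on chromosome 13 (81095068 to 81633154, minus strand), encodes the receptor whose long outer part reaches across the periciliary space. Its level was 12.6, 13.7, 14.1, 14.4 and 11.3 FPKM in the NL retinas and 10.5, 8.14, 8.17, 10.8 and 10.2 FPKM in the LD retinas, in the same order. LD-4 and LD-6 were again the lowest. The gene fell by 0.47 on the log2 scale (SE 0.10, adjusted p = 0.00557), on 4106 to 7619 reads per retina. Without LD-4 and LD-6 it no longer passed (log2 fold change -0.32, adjusted p = 0.0209). Nor did it when NL-1, NL-4, NL-5, NL-7, LD-4 or LD-6 alone was left out (adjusted p from 0.0112 to 0.0166), when the scaling factor per retina was left out (0.0210), as TPM (0.0201) or without the intensity trend of the model (0.0116). Of 14 other genes of the photoreceptor cilium, 3 passed both thresholds, all lower (*Rpgrip1*, *Rp1* and *Rp1l1*, with log2 fold changes of -1.62, -1.48 and -1.44), and 5 passed the adjusted p, all lower.

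*Clrn1*, on chromosome 3 (58844028 to 58885340, minus strand), encodes clarin 1, a small membrane protein needed by hair cells. In the mouse retina its transcript has been placed mainly in Müller glia. Its level was 1.45, 1.34, 1.44, 1.60 and 1.82 FPKM in NL-1, NL-4, NL-5, NL-7 and NL-8. It was 2.99, 5.14, 4.97, 2.39 and 3.16 FPKM in LD-1, LD-4, LD-6, LD-7 and LD-8. The lowest LD value exceeded the highest NL value, and LD-4 and LD-6 were the highest. The means were 1.53 ± 0.185 FPKM in NL and 3.73 ± 1.25 FPKM in LD (SD, n = 5 each). The log2 fold change was 1.18 (SE 0.20, adjusted p = 0.00160), on 110 to 181 reads in NL and 210 to 429 reads in LD.

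The rise of *Clrn1* fell below 2-fold when LD-4 and LD-6 were both left out. Without them the log2 fold change was 0.85 (adjusted p = 0.0027), and among the retinas without *Xist* it was 0.87 (adjusted p = 0.0088). Among those with *Xist* it was 1.63 (adjusted p = 0.0105). Of 8 Müller glia genes, 2 were higher and 1 was lower at the adjusted p, and the median log2 fold change was 0.23. *Vim*, an intermediate filament gene, rose from 25.5 to 104 FPKM (log2 fold change 2.02, adjusted p = 2.16e-05). *Glul*, for glutamine synthetase, fell from 711 to 165 FPKM (log2 fold change -2.09, adjusted p = 1.99e-07). *Sox9*, for a glial transcription factor, rose from 6.70 to 11.9 FPKM (log2 fold change 0.79, adjusted p = 0.00248). The summed level of the 8, of which *Glul* was the most abundant in NL, was 1082 to 1310 FPKM in NL and 600 to 848 FPKM in LD. In LD-4 and LD-6, where *Clrn1* was highest, the sum was 821 and 848 FPKM, above the 600.3 to 649.6 FPKM of the other LD retinas. The summed level of 4 endothelial genes also stood apart there, at 80.6 and 79.7 FPKM, with 47.4 to 50.8 FPKM in LD-1, LD-7 and LD-8 and 32.5 to 43.1 FPKM in NL. The sum of 5 bipolar genes stood apart too, at 344 and 348 FPKM against 239 to 291 FPKM in LD-1, LD-7 and LD-8. So did that of 5 ganglion cell genes, at 228 and 229 FPKM against 198 to 211 FPKM. The sums of 5 amacrine and 10 pigment epithelium genes did not. Of 8 microglia and myeloid genes, 5 were higher past both thresholds, with a summed level of 10.2 to 13.2 FPKM in NL and 16.7 to 33.1 FPKM in LD. In LD-4 and LD-6 that sum was 22.3 and 22.7 FPKM, within the range of the other LD retinas. The part of any of these cell types in the *Clrn1* values was not tested.

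The protein-coding genes whose log2 levels ran closest to those of *Clrn1* over the 10 retinas, of 12421 candidates and with each gene set to its own NL mean, were *Olfm2* (root mean square difference 0.116) and *Cavin1* (0.136). *Olfm2*, an olfactomedin family gene, was at 13.1 ± 1.39 FPKM in NL and 31.1 ± 8.14 FPKM in LD (SD, n = 5 each), with its highest values, 41.2 and 38.4 FPKM, in LD-4 and LD-6. *Cavin1*, for a coat protein of caveolae, was at 2.57 ± 0.149 FPKM in NL and 6.05 ± 2.09 FPKM in LD (SD, n = 5 each). Its highest values, 8.10 and 8.47 FPKM, were also in LD-4 and LD-6. Both genes were picked by their closeness to *Clrn1*, so their rise and these highest values are no further result.

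**Figure D2:**
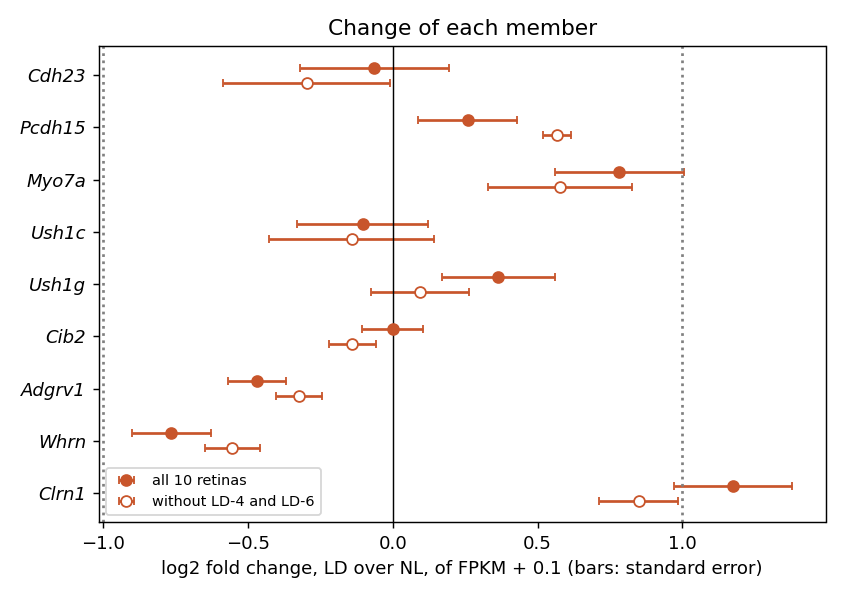
Log2 fold change of each member, LD over NL, of FPKM + 0.1 (horizontal axis, bars are the standard error), with all 10 retinas (filled) and without LD-4 and LD-6 (open). Dotted lines mark 2-fold, which the estimate for *Clrn1* passes with all retinas (1.18) but not without these LD retinas (0.85), and *Pcdh15* moves from 0.26 to 0.57.

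In NL the members ranked *Whrn*, *Pcdh15*, *Adgrv1*, *Cib2*, *Ush1c*, *Clrn1*, *Ush1g*, *Myo7a* and *Cdh23* by mean FPKM. The ranges of *Pcdh15* and *Adgrv1*, of *Ush1c* and *Clrn1*, and of *Myo7a* and *Cdh23* overlapped, with the first of each pair higher in 3 of 5 retinas. In LD, *Whrn* and *Pcdh15* shared the top, with overlapping ranges and *Whrn* higher in 4 of 5 retinas, followed by *Adgrv1* and *Cib2*, whose ranges also overlapped. *Clrn1* came next, above *Ush1g* and *Ush1c* in every LD retina. Of the summed FPKM of the 9 members, the mean share of *Whrn* was 42.1% in NL and 28.8% in LD, that of *Pcdh15* 20.3% and 28.6%, and that of *Clrn1* 2.15% and 6.27%.

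For 6 pairs of members whose proteins bind each other, the difference between the log2 levels of the pair was compared between the groups by exact permutation of the retinas, two-sided. The pair of *Cib2* and *Myo7a* differed in change: *Cib2* was above *Myo7a* by 4.57 ± 0.378 on the log2 scale in NL and by 3.79 ± 0.166 in LD (SD, n = 5 each, exact p = 0.00794, 0.0476 after adjustment over the 6 pairs). *Adgrv1* was below *Whrn* by less in LD, with a shift of 0.30 toward *Adgrv1* that did not pass after adjustment (exact p = 0.0317, adjusted 0.0952). The tip link pair, *Cdh23* and *Pcdh15*, shifted by -0.32 (exact p = 0.437, adjusted 0.524). For the pairs of *Myo7a* with *Ush1g*, *Ush1c* with *Ush1g* and *Ush1c* with *Cdh23* the shifts were 0.42, -0.47 and -0.04, with exact p-values of 0.151, 0.183 and 0.857 before adjustment. The call of *Cib2* and *Myo7a* was lost with a pseudocount of 1 and with quantile normalization.

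Each member was also set against the mean log2 level of the 10 rod genes in the same retina. That rod mean was lower in LD by 2.17, so a member with no change of its own differs from it by that amount. All 9 members were higher in LD relative to the rod mean (exact permutation p = 0.00794 for each, the smallest that 5 against 5 retinas can give). *Whrn* and *Adgrv1* had the smallest shifts, 1.40 and 1.70 on the log2 scale, and *Clrn1* and *Myo7a* had the largest, 3.34 and 2.95. *Pcdh15* shifted by 2.42, *Ush1g* by 2.53, *Cib2* by 2.17, *Cdh23* by 2.10 and *Ush1c* by 2.06. The same fall of the rod mean is part of every shift, so the order of the shifts repeats the log2 fold changes given above. *Whrn* and *Adgrv1* moved in the direction of the rod genes but by less.

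**Figure D3:**
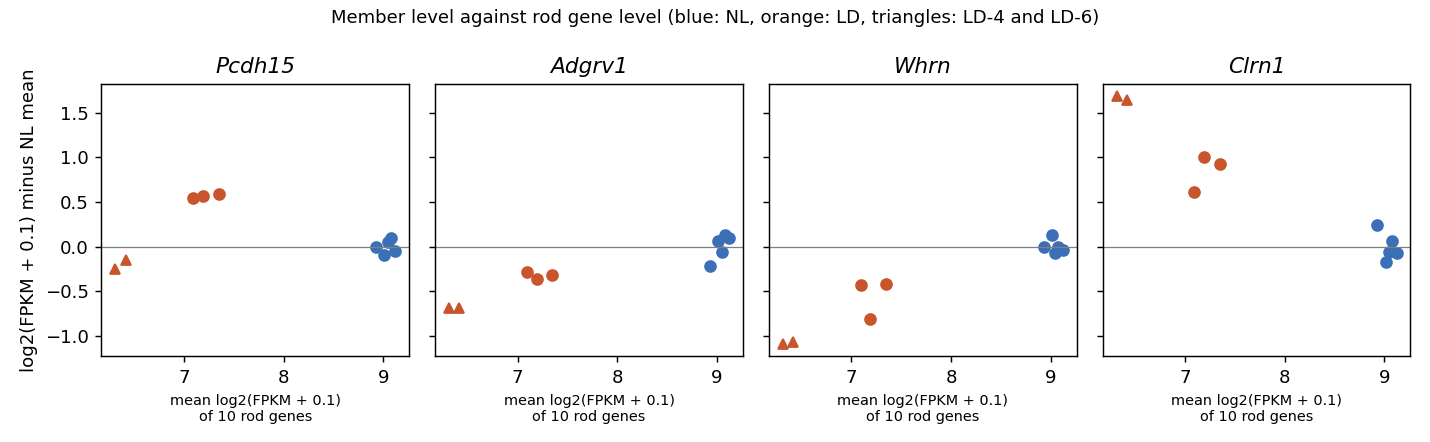
Log2(FPKM + 0.1) of *Pcdh15*, *Adgrv1*, *Whrn* and *Clrn1* minus the NL mean of the gene (vertical axis) against the mean log2(FPKM + 0.1) of the 10 rod genes (horizontal axis) in each NL (blue) and LD (orange) retina. LD-4 and LD-6 (triangles) have the lowest rod means, 6.31 and 6.41, the lowest values of *Pcdh15*, *Adgrv1* and *Whrn* and the highest of *Clrn1*.

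Of 35 other gene names listed as partners or relatives of these proteins, all called partners here, 34 had a row in the table. Of these, 26 passed the filter. Past both thresholds, 1 was lower and none was higher, and at the adjusted p alone 5 were lower and 1 was higher, against 7.74% and 9.30% of all genes. The median log2 fold change of the 26 was -0.00. The gene past both thresholds was *Cdhr1*, a photoreceptor cadherin at the base of the outer segment, at 288 ± 34.9 FPKM in NL and 127 ± 49.8 FPKM in LD (SD, n = 5 each), with a log2 fold change of -1.26 (SE 0.24, adjusted p = 0.00275). *Cdhr1* was 1 of 8 names listed as microvillus adhesion relatives. None of the listed complex or tip link channel partners passed both thresholds. Without LD-4 and LD-6 no partner passed both thresholds.

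The other 5 partners at the adjusted p were picked after their values were seen. *Eps8*, for an actin regulator of stereocilia, was at 8.09 to 9.61 FPKM in NL and 4.04 to 5.50 FPKM in LD. *Myrip*, for the protein that links myosin VIIa to Rab27a on vesicles, was at 16.0 to 19.0 FPKM in NL and 8.56 to 12.2 FPKM in LD. Their log2 fold changes were -0.93 and -0.87. *Arsg*, for a lysosomal sulfatase, and *Cep250*, for a centrosomal protein, both linked to atypical forms of Usher syndrome, had log2 fold changes of -0.89 and -0.73. *Gnai3*, for an inhibitory G protein subunit that shapes the hair bundle, rose by 0.39 on the log2 scale (adjusted p = 0.00124), from 14.1 ± 1.13 to 18.4 ± 1.24 FPKM (SD, n = 5 each). For all 6 partners named, the LD and NL retinas did not overlap, as was so for 22.4% of all genes. These 6 had been selected by the adjusted p, so the lack of overlap is no further result. The channel genes *Tmc1* and *Tmc2*, which the tip link pulls on in hair cells, did not reach the filter, and neither did *Myo3a*, *Cib3*, *Myo7b*, *Cdhr2*, *Clrn3* or *Cib4*.

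**Figure D4:**
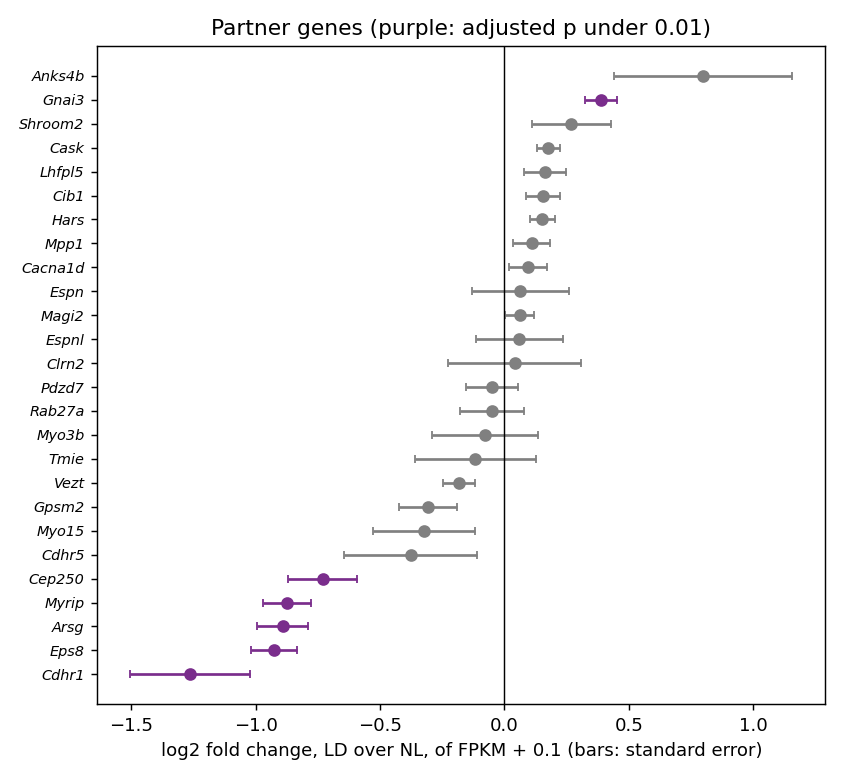
Log2 fold change, LD over NL, of FPKM + 0.1 (horizontal axis, bars are the standard error) for the 26 partner genes tested, relatives included. They are ordered by their change. The 6 in purple had an adjusted p under 0.01: *Cdhr1* (-1.26), *Eps8*, *Arsg*, *Myrip* and *Cep250* lower, and *Gnai3* (0.39) higher.

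For the other cell types, no gene passed the adjusted p among 5 markers each of bipolar, amacrine and ganglion cells, and 1 of 4 endothelial genes did (*Kdr*, log2 fold change 0.70, adjusted p = 0.00876).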

How the data were processed

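RNA-seq libraries were made from 5 NL and 5 LD retinas, grouped by their titles. Per the labels, a TruSeq kit was used, and the submitters' processing notes name Bowtie2 2.0.6, TopHat2 2.0.9 and the build mm8. The positions in the table are those of GRCm38: 54495 of 54532 identifiers were in GENCODE M21, and 53585 had the same position, the 9 members included. A company normalized the data for the authors, who deposited FPKM values, and the counting program is not given in the sources used here. FPKM times gene length gave whole reads for 100% of the values (tolerance 0.01 reads), which set the depth.

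Log2(FPKM + 0.1) was compared, for genes that reached 0.1 FPKM in 5 retinas or more, in limma 3.58.1 (R 4.3.3) with an intensity trend and no covariates. Benjamini-Hochberg adjustment ran over all genes tested. A fold change is on the log2(FPKM + 0.1) scale, which understates changes of low genes. Pairs of members and members against rod genes were compared by two-sided exact permutation over the retinas (scipy 1.17.1). The fit was tested on simulated data. Members, lists and tests were chosen with earlier results of these data known. Named were all members, up to 3 called genes of some lists and some of the neighbours that overlap a member. For each called member, the 2 protein-coding genes with the closest profile were named. *Sox9*, *Kdr* and 5 partners passed only the adjusted p and were named as well. Upstream sequences are from RefSeq, GRCm38.p6. Alternatives changed the pseudocount, filter, scaling, model, threshold, block, covariate and retinas included.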

Additional observations from a re-analysis of the deposited data

Results flagged for a closer look

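In 84 groups of 5 retinas, 1 retina stood far from the other 4 (gap over range above 0.71, Dixon's 95% critical value) in 7, where chance gives about 4.2. No member was among them. The search first covered the members and was then widened to the partner genes, the depth and the marker sums.

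*Cep250* was at 16.9 FPKM in NL-1 and 12.0 to 13.0 FPKM in the other NL retinas. *Clrn2* was at 0.297 FPKM in NL-1 and 0.0997 to 0.157 FPKM in the others. *Mpp1* was at 3.50 FPKM in NL-4 and 4.25 to 4.40 FPKM in the others. In LD-8, *Myrip* was at 12.2 FPKM and *Espnl* at 0.355 FPKM, against 8.56 to 9.01 FPKM and 0.226 to 0.254 FPKM in the other LD retinas. NL-8 had 26.8 M reads (M, 1e6) and the other NL retinas 21.3 to 22.3 M. The summed level of the microglia and myeloid genes was 13.2 FPKM in NL-1 and 10.2 to 10.7 FPKM in the other NL retinas.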

How the results depend on the processing

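The count of members past both thresholds (1) was 0 with a pseudocount of 1, with the closest pairs of retinas averaged (NL-5 with NL-7, LD-1 with LD-7, LD-4 with LD-6), without LD-4 and LD-6 and in the retinas without *Xist*, and 4 at an adjusted p under 0.05 with no minimum fold. Members at the adjusted p (3) numbered 2 to 3 with single retinas left out, 3 without LD-4 and LD-6 (*Pcdh15* in place of *Adgrv1*), 2 without the factor per retina, as TPM and without the trend (*Adgrv1* lost), 4 with the *Xist* covariate or limma-voom on the recovered reads (*Myo7a* added, adjusted p 0.0062 and 0.0090), 1 with the pairs averaged and 1 in the retinas with *Xist*. With the pairs averaged and in the retinas with *Xist*, that 1 member was *Whrn* (adjusted p 0.0092 and 0.0027), not *Clrn1* (0.0112 and 0.0105). In the retinas with *Xist*, *Whrn*, lower in LD, was also the 1 member past both thresholds. Over all genes 1595 passed both thresholds, against 816 with a pseudocount of 1 and 6818 at the looser threshold. In the retinas without *Xist* 927 did, and in those with it 942. The partner count (1) was 0 with the pairs averaged, without LD-4 and LD-6 and in the retinas without *Xist*, 4 in those with *Xist* and 8 at the looser threshold. With any retina left out, 1 member and 1379 to 1603 genes passed both thresholds, and the log2 fold change of *Clrn1* was 1.05 to 1.32. Over 27 alternatives the adjusted p was 5.1e-04 to 0.0393 for *Clrn1*, 5.7e-04 to 0.0371 for *Whrn* and 8.0e-04 to 0.0646 for *Adgrv1*, with no change of direction.

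The pair count (1) was 0 with a pseudocount of 1 and with quantile normalization. It was also 0 with a filter at 1 FPKM, where *Myo7a* was not tested, without LD-4 and LD-6, and in 8 retinas without the block, and 0 to 2 with single retinas left out. With a retina fewer the smallest exact p is 0.0159, and without LD-4 and LD-6 it is 0.0357. At these and at 4 against 4, 1 pair alone cannot pass after adjustment over 6, so these zeros say nothing about the pair. Of the averaged pairs, 4 against 3 samples cannot go below 0.0571, so the permutation counts first made there (0 pairs and 0 members against rods) were not kept. None were made for the block, the *Xist* covariate or the retinas split by *Xist*.

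As a replicate block, the 4 numbers that both groups share (1, 4, 7 and 8) left 0 members past both thresholds, 0 at the adjusted p, 0 partners and 808 genes. The same 8 retinas without the block gave 0, 0, 0 and 1182. Deviations of same-numbered retinas correlated at 0.136, 0.156, 0.0144 and -0.156. The labels do not say what a shared number means, and 4 correlations cannot settle it.

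Signs reversed only for members that did not pass. With the factor per retina left out, *Ush1c*, *Cdh23* and *Cib2* were at 0.0198, 0.0203 and 0.131. As TPM, *Cdh23* was at 0.0098 and *Cib2* at 0.103, and *Cdh23* with the pairs averaged at 0.0232. In the retinas with *Xist*, *Ush1c*, *Cdh23*, *Pcdh15* and *Cib2* were at 0.0602, 0.562, -0.159 and 0.140, and in those without, *Ush1g* was at -0.0604. *Cib2* was at 2.8e-04 with a pseudocount of 1 and 5.5e-05 in the 8 retinas with or without the block. With single retinas left out, *Cdh23* was at -0.167 to 0.0919 and *Cib2* at -0.0871 to 0.0710. The causes were not tested. The alternatives around LD-4, LD-6 and *Xist* as a split were chosen after seeing the data.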
